A study of Mus musculus with 8 samples.

Results

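The enzymes that break down amino acids in liver were examined as a group of 46 genes in KK-Ay mice fed persimmon peel (PP) extract. The group covers tyrosine, tryptophan, the branched chain amino acids with propionate, methionine with the sulfur amino acids, glycine with serine and one-carbon units, histidine, lysine, proline, and the alanine and aspartate transaminases. Members were found by gene symbol in the array annotation, and each was represented by the probe set with the highest mean over all arrays. Of the 46 genes, 45 were measured, out of 18193 genes on the array. Amt, the aminomethyltransferase of the glycine cleavage system, was not in the annotation used here and was not analysed. Mut is listed there under its newer symbol, Mmut.

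The PD group received PP extract at 1 g per kg of AIN-93G diet, and the CD group received AIN-93G alone. All animals of both groups were male KK-Ay mice, which carry the Ay allele and become obese and insulin resistant, so no lean or nondiabetic mice are included. They were housed 1 to a cage, fed for 8 weeks, fasted for 3 h and sampled at 14 weeks of age. Liver RNA of 4 PD and 4 CD mice was hybridised, with 1 array per mouse, and per the study's methods these livers were picked because plasma total ketone bodies lay near the average. Values are log2 expression indices, in which a difference of 1 is a change of 2-fold.

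Amino acid catabolism is concentrated in hepatocytes, where it supplies carbon for glucose and ketone body production and sends nitrogen to the urea cycle. The first steps often remove the amino group by transamination or oxidise a ring, and later mitochondrial steps deliver acetyl-CoA, propionyl-CoA, fumarate or other intermediates. The methionine branch makes S-adenosylmethionine, the methyl donor of the cell, and passes its sulfur to cysteine and taurine. Glucocorticoids and glucagon are known to raise the expression of several of these enzymes in fasting, and insulin is known to lower it.

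The arrays were alike in overall level, with medians of 7.09 to 7.16 and correlations between pairs of arrays of 0.991 to 0.996. Of 8 hepatocyte markers 6 were measured, at 13.60 to 14.73, and their mean level was 14.08 to 14.13 in PD mice and 14.03 to 14.13 in CD mice. Of these, 3 had a higher and 3 a lower mean in PD. All 6 measured periportal hepatocyte markers had a lower mean in PD (median difference -0.05), as had 6 of 8 pericentral ones (-0.06). None of these was called, and their part in the member differences was not tested. The lists for cholangiocytes, lymphocytes, adipocytes and kidney lay at 5.91 to 7.51, and that for pancreas at 7.02 to 9.21. Of the markers of cell types other than hepatocytes, Col3a1 of the stellate cell list was called higher in PD and the others were not called. In bulk RNA, fewer cells of a type and less RNA per cell cannot be told apart.

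None of the 45 measured members was distinguished between the diets. Of the 45 members, 15 had a higher mean in PD and 30 a lower mean, with differences (PD minus CD) from -0.19 for Gldc to 0.09 for Got1 and a median of -0.03. The median over all genes was -0.01, and 53.5% of all genes had a lower mean in PD. Among the 5365 genes at least as bright as the dimmest member, Csad, the median was 0.01 and 47.2% were lower in PD. These genes are not matched to the members in brightness, their median level being 9.47, against 11.62 for the members. The rank product, which ranks the PD to CD ratio of each probe set within every pair of arrays and calls it at a false discovery rate (FDR) under 0.1, called 0 members in either direction, against 0.286% of all genes called higher and 0.363% called lower. In limma 0 members had an adjusted p under 0.1, as had 0% of all genes, and 0 had an unadjusted p under 0.05, against 4.24% of all genes. In 0 members did all PD mice lie above or all below the CD mice, against 1.12% of all genes above and 1.03% below. The lowest unadjusted p of a member was 0.11 in limma, for Haao, and the lowest in an exact permutation test was 0.0571, for Sardh, where 0.0286 is the smallest that 4 mice against 4 allow.

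The spread between mice set how large a difference could have gone unseen. The 95% interval of the difference lay within 0.5 on the log2 scale (1.41-fold) in either direction for all 45 members. It lay within 0.25 (1.19-fold) for 37 of them, or 82.2%, against 80.99% of all genes and 74.7% of genes at least as bright as Csad. The 8 members with a wider interval were Afmid, Cth, Cdo1, Csad, Gldc, Sardh, Amdhd1 and Got1. The widest interval, for Got1, ran from -0.29 to 0.46, and the narrowest, for Fah, from -0.09 to 0.09.

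**Figure D1:**
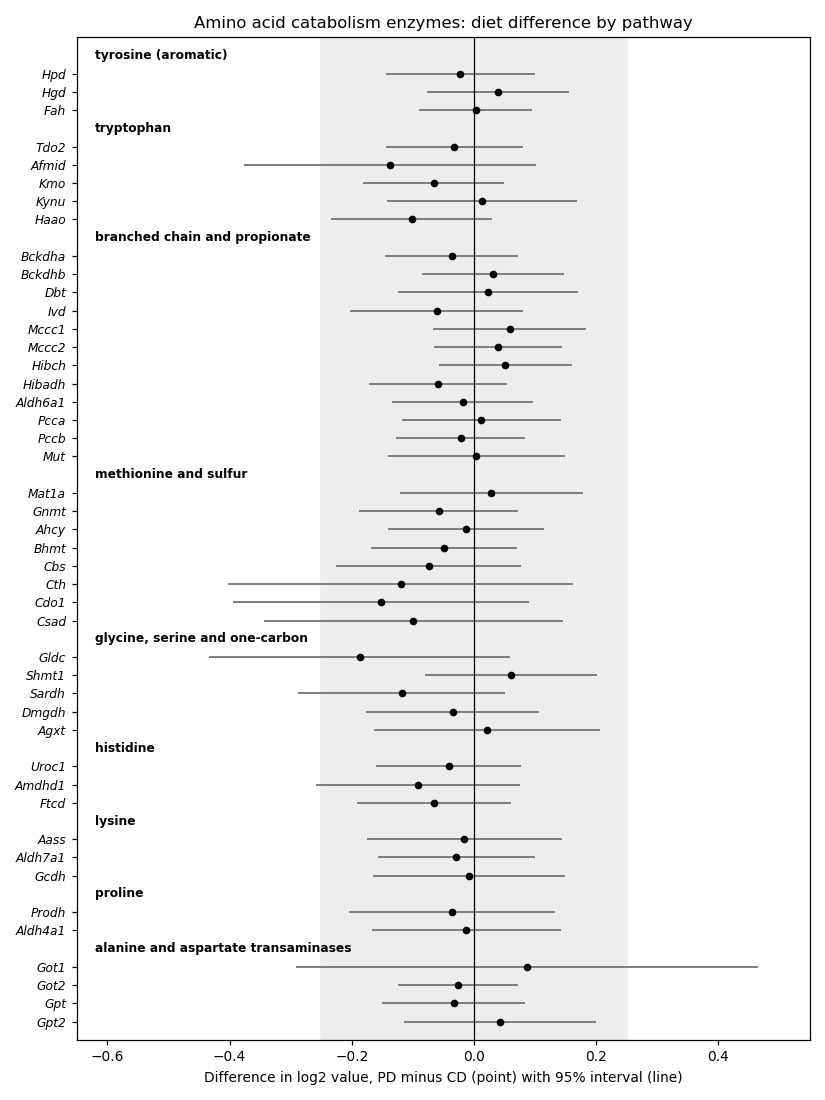
Difference in log2 value (PD minus CD, points) with its 95% limma interval (lines) for the 45 measured members, grouped by pathway from top to bottom, with the range from -0.25 to 0.25 in grey. Every interval includes 0, and those of Got1, Gldc, Cth, Cdo1, Afmid, Csad, Sardh and Amdhd1 leave the grey range.

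Promoters are shown for the members at the ends of the scale and for 1 gene outside the group: Gldc for the largest difference, Got1 for the widest and Fah for the narrowest spread between mice, Got2 as the mitochondrial partner of Got1, and Tat, the enzyme upstream of the tyrosine members, as a gene that was called. Each is the 250 bases before the gene start (RefSeq, GRCm38.p6, on the gene's own strand, 5′ to 3′): chr19:30175442-30175691, chr19:43524606-43524855, chr7:84605943-84606192 and chr8:95888402-95888651 on the minus strand, and chr8:109990186-109990435 on the plus strand. Capitals mark matches, on either strand, to the TATA box TATAAA, the CCAAT box CCAAT, which reads ATTGG on the other strand, the GC box GGGCGG, which reads CCGCCC there, or the amino acid response element core TGATGNAA.
Gldc: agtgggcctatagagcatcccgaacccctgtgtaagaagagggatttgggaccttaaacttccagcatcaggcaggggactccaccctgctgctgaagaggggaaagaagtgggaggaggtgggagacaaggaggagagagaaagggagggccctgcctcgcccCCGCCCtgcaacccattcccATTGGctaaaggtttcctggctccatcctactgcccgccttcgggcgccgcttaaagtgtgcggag
Got1: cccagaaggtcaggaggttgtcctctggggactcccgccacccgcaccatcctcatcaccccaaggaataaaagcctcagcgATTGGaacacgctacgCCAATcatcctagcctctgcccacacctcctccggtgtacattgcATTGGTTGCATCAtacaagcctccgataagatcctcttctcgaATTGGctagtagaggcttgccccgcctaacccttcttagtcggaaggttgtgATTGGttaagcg
Fah: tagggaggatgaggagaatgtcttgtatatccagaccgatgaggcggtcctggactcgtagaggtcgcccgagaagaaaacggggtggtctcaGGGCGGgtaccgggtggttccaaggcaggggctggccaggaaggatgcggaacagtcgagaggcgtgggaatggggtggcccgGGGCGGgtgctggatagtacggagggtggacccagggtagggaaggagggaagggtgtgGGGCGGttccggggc
Got2: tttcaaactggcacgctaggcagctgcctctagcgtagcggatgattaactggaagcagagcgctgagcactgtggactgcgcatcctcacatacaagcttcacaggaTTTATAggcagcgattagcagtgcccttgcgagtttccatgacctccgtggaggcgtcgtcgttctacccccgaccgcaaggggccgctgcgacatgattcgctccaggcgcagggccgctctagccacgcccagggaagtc
Tat: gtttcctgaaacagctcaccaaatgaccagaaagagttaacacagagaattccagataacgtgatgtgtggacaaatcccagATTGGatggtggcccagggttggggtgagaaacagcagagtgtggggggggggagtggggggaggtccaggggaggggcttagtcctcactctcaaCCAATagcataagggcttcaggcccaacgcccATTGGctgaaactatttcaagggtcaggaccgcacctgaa

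The Got1 stretch held 5 CCAAT boxes and 1 amino acid response element core, which directly followed one of them. The Fah stretch held 3 GC boxes, that of Gldc 1 CCAAT box and 1 GC box, and that of Tat 3 CCAAT boxes. In the Got2 stretch the 1 match to TATAAA lay on the other strand, at -142 from the gene start. Of the measured members, 37 had a promoter in the table used, and 8 (Kynu, Dbt, Mut, Mat1a, Cth, Cdo1, Aldh7a1 and Gpt) had none. Over those 37, 56.8% held a CCAAT box, against 37.5% of all 27025 genes with a promoter, and 45.9% held a GC box, against 35.4%. TATAAA was found in 10.8% of the members and 14.3% of all genes, the E box CACGTG in 5.41% and 6.86%, and the glucocorticoid receptor motif AGAACA in 10.8% and 18.2%. TGATGNAA was found in 1 member, Got1, or 2.7%, against 3.91% of all genes. The cyclic AMP response element TGACGTCA and the HNF4 motif CAAAGTCCA were found in 0 of the 37, against 1.77% and 0.451% of all genes. These shares describe letters in a short window, and motifs that overlap were counted once for each motif.

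The tyrosine members are among the enzymes from 4-hydroxyphenylpyruvate to fumarate. Hpd, the dioxygenase that makes homogentisate, Hgd, which opens its ring, and Fah, the hydrolase of the last step, had mean differences of -0.02, 0.04 and 0.0026. The values of Hgd were 13.17, 13.13, 13.05 and 13.06 in PD mice, against 13.02, 13.10, 12.98 and 13.14 in CD mice. Those of Hpd, the member of this pathway with the widest spread, were 13.91, 13.74, 13.81 and 13.74 in PD mice, against 13.84, 13.88, 13.73 and 13.83 in CD mice. Both ranges overlapped widely between the diets. Fah stayed between 12.93 and 12.99 in all 8 mice, and its within-diet SD of 0.03 was the smallest of the 45 members.

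The tryptophan members run from the first, ring-opening step to the precursor of NAD. Tdo2, the tryptophan dioxygenase of hepatocytes, averaged 13.60 ± 0.04 in PD and 13.63 ± 0.08 in CD mice (SD, n = 4 each). Afmid, the formamidase that releases kynurenine, had values of 9.74, 9.29, 9.47 and 9.60 in PD mice, against 9.91, 9.67, 9.46 and 9.60 in CD mice. Its difference of -0.14 (95% interval -0.38 to 0.10) was the largest of this pathway, smaller than its within-diet SD of 0.19, and PD replicate 2 was the lowest of all mice. The Afmid difference was -0.06 without PD replicate 2 or CD replicate 1 and -0.21 without PD replicate 1. Haao, the 3-hydroxyanthranilate dioxygenase, had 11.48, 11.38, 11.58 and 11.35 in PD mice, against 11.60, 11.50, 11.49 and 11.60 in CD mice, with a difference of -0.10 (95% interval -0.23 to 0.03). PD replicates 1, 2 and 4 lay below all CD mice, and PD replicate 3 lay among the higher ones. The difference of Haao was -0.15 without PD replicate 3, the only PD mouse within the CD range, and -0.07 without PD replicate 4. Kmo, kynurenine 3-monooxygenase, differed by -0.07 and Kynu, kynureninase, by 0.01.

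The branched chain and propionate members degrade leucine, isoleucine and valine after the first transamination, and the last 3 turn propionyl-CoA into succinyl-CoA. Of these 12 members, 7 had a higher mean in PD and 5 a lower one, with a median of 0.0080 and differences from -0.06 to 0.06. All 12 intervals lay within 0.25 for the probe sets used. Ivd, the isovaleryl-CoA dehydrogenase of leucine breakdown, had the largest difference, -0.06 (95% interval -0.20 to 0.08), with 10.24, 10.01, 10.26 and 10.27 in PD mice, against 10.30, 10.26, 10.19 and 10.28 in CD mice. Without PD replicate 2 its difference was 0.0016. Dbt, the transacylase core of the branched chain ketoacid dehydrogenase, had the widest spread, with 10.46, 10.28, 10.33 and 10.38 in PD mice, against 10.44, 10.41, 10.17 and 10.33 in CD mice.

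Subunits of 1 enzyme were set side by side as differences, not as levels. Bckdha and Bckdhb, the alpha and beta subunits that decarboxylate branched chain ketoacids, differed by -0.04 and 0.03. Mccc1 and Mccc2, the subunits of methylcrotonyl-CoA carboxylase in leucine breakdown, differed by 0.06 and 0.04, and Pcca and Pccb, those of propionyl-CoA carboxylase, by 0.01 and -0.02. All 6 intervals included 0. Hibch, Hibadh and Aldh6a1, of the valine branch, differed by 0.05, -0.06 and -0.02, and Mut, methylmalonyl-CoA mutase, by 0.0038.

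The methionine and sulfur members had a median difference of -0.07, with 7 of 8 lower in PD. Cdo1, cysteine dioxygenase, which commits cysteine to taurine and sulfate, had 13.26, 12.78, 12.90 and 12.84 in PD mice, against 13.28, 13.12, 13.11 and 12.87 in CD mice. PD replicates 2, 3 and 4 lay at or near the low end and PD replicate 1 near the top, and the difference of -0.15 (95% interval -0.39 to 0.09; exact permutation test, p = 0.314, n = 4 each) was smaller than the within-diet SD of 0.19. The difference of Cdo1 was -0.26 without PD replicate 1, but -0.10 without PD replicate 2 and -0.09 without CD replicate 1. Cth, the lyase that completes transsulfuration to cysteine, had the widest spread of the pathway, with 12.85, 12.54, 12.60 and 12.66 in PD mice, against 12.80, 12.97, 12.36 and 12.99 in CD mice. CD replicate 3 was the lowest of all mice for Cth. The difference of -0.12 with all mice was -0.26 without this mouse, but -0.06 without CD replicate 2 and -0.05 without CD replicate 4. Csad, the decarboxylase that makes hypotaurine, was the dimmest member, and its values of 8.47, 8.24, 8.44 and 8.49 in PD mice lay within the CD values of 8.60, 8.53, 8.75 and 8.16. The Csad difference of -0.10 was -0.02 without CD replicate 3, the highest mouse, and -0.22 without CD replicate 4, the lowest.

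The steps that make and use S-adenosylmethionine varied less. Mat1a, the liver methionine adenosyltransferase, differed by 0.03 and was the only member of this pathway with a higher mean in PD. Gnmt, the glycine N-methyltransferase that uses up S-adenosylmethionine, differed by -0.06, Ahcy, S-adenosylhomocysteine hydrolase, by -0.01, and Bhmt, which remethylates homocysteine with betaine, by -0.05. Cbs, the first enzyme of transsulfuration, differed by -0.07, with a 95% interval of -0.22 to 0.07. Bhmt was the brightest probe set of the group, at 14.30 ± 0.09 in PD and 14.35 ± 0.05 in CD mice (SD, n = 4 each).

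In the glycine, serine and one-carbon members the largest difference of all 45 was found. Gldc, the decarboxylase of the glycine cleavage system, had 11.12, 10.53, 10.77 and 10.73 in PD mice, against 11.14, 10.91, 10.98 and 10.85 in CD mice. PD replicates 2, 3 and 4 lay below all CD mice and PD replicate 1 lay next to the highest. The means were 10.79 ± 0.25 in PD and 10.97 ± 0.13 in CD mice (SD, n = 4 each), a difference of -0.19 (95% interval -0.43 to 0.06; limma, unadjusted p = 0.119; exact permutation test, p = 0.229), and thus 0.878-fold. The difference was -0.30 without PD replicate 1, but -0.10 without PD replicate 2.

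Sardh and Dmgdh, the mitochondrial dehydrogenases of sarcosine and dimethylglycine, differed by -0.12 and -0.03. The Sardh values were 11.69, 11.38, 11.71 and 11.75 in PD mice, against 11.76, 11.76, 11.78 and 11.72 in CD mice, so that 1 PD mouse overlapped the CD mice and PD replicate 2 stood apart below. Without PD replicate 2 the Sardh difference was -0.03. Shmt1, the cytosolic serine hydroxymethyltransferase, differed by 0.06, and Agxt, the peroxisomal alanine-glyoxylate aminotransferase, by 0.02. The median of the 5 measured members was -0.03, and without CD replicate 1 it was 0.02.

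**Figure D2:**
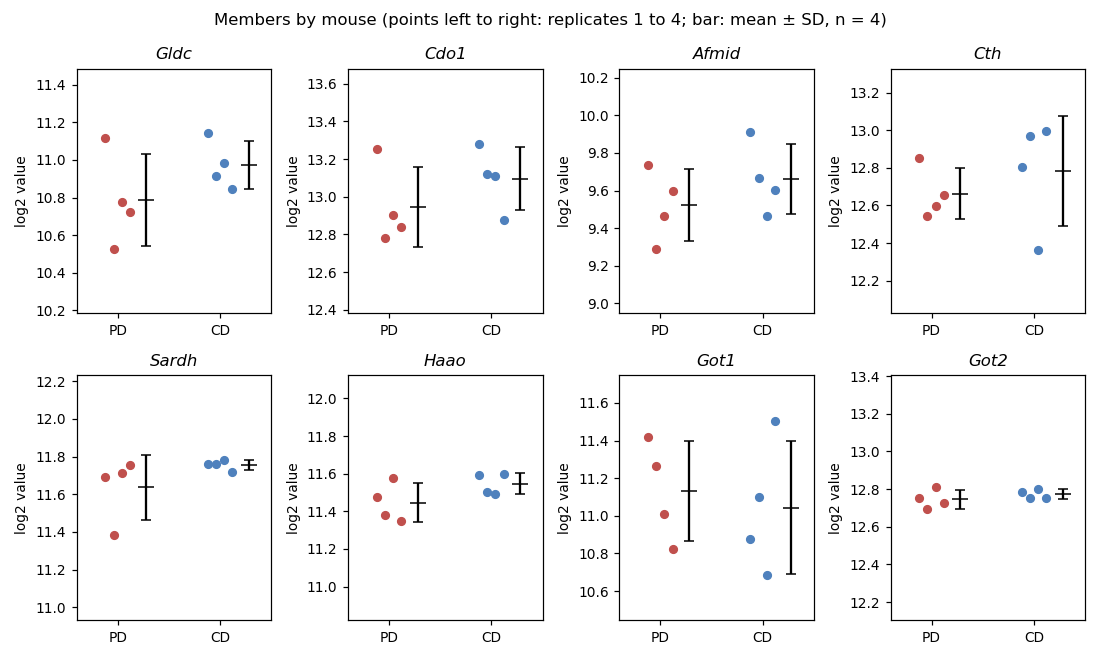
Log2 values of each mouse (points, replicates 1 to 4 from left to right) with the mean and SD of each diet (bars, n = 4), PD left of CD, for 8 members on axes of equal height. PD and CD points overlap in each panel, and Got2 (12.69 to 12.81) is far tighter than Got1 (10.69 to 11.51).

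The 3 histidine members, urocanase (Uroc1), Amdhd1, which opens the imidazolone ring, and Ftcd, which hands the formimino group to folate, had lower means in PD, with differences of -0.04, -0.09 and -0.07. Amdhd1 had 11.37, 11.06, 11.27 and 11.12 in PD mice, against 11.42, 11.34, 11.22 and 11.21 in CD mice, with PD replicates 2 and 4 lowest and PD replicate 1 second highest, and its difference moved to -0.15 when PD replicate 1 was left out and to -0.04 when PD replicate 2 was left out. The lysine members Aass, the bifunctional first enzyme of the saccharopine pathway, Aldh7a1, a semialdehyde dehydrogenase, and Gcdh, glutaryl-CoA dehydrogenase, differed by -0.02, -0.03 and -0.0084. Aass had 12.24, 12.04, 11.98 and 11.97 in PD mice, against 12.06, 12.17, 11.94 and 12.13 in CD mice, and Aldh7a1 had 12.32, 12.13, 12.27 and 12.32 in PD mice, against 12.35, 12.34, 12.27 and 12.19 in CD mice. In proline oxidation, Prodh, the first enzyme, differed by -0.04 and Aldh4a1, the second, by -0.01. Prodh had 10.79, 10.93, 10.83 and 10.65 in PD mice, against 10.75, 10.97, 10.70 and 10.92 in CD mice. None of these sets of values separated the diets.

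Among the transaminases, one isoenzyme of aspartate aminotransferase varied widely between mice and the other hardly, in the probe sets used. Got1, the cytosolic aspartate aminotransferase, had 11.42, 11.27, 11.01 and 10.82 in PD mice, against 10.88, 11.10, 10.69 and 11.51 in CD mice. Both diets thus held high and low mice, the highest and the lowest both being CD mice, and the within-diet SD of 0.31 was the largest of the 45 members. The difference was 0.09 (95% interval -0.29 to 0.46), and it turned to -0.03 without CD replicate 3 and was 0.24 without CD replicate 4. Got2, the mitochondrial isoenzyme, had 12.75, 12.69, 12.81 and 12.73 in PD mice, against 12.79, 12.75, 12.80 and 12.75 in CD mice, with an SD of 0.04. Gpt and Gpt2, the cytosolic and mitochondrial alanine aminotransferases, differed by -0.03 and 0.04.

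The within-diet SD of the members ran from 0.03 to 0.31, and its median was 0.084, against 0.085 over all genes. Members with an SD over 0.15 were 6 in number (Got1, Cth, Gldc, Csad, Cdo1 and Afmid), and 6 had an SD under 0.06. The difference exceeded the within-diet SD in 2 members, Haao and Kmo. By brightness 41 of the 45 lay at or above the 90th percentile of all genes, and 11 in the top percent, which describes probe signal and not a ranking of transcripts.

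**Figure D3:**
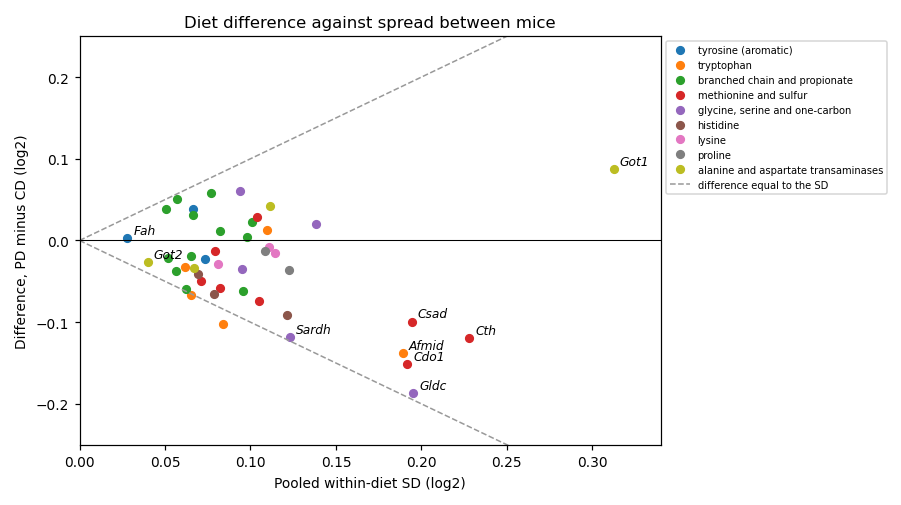
Diet difference (PD minus CD, log2, vertical axis) against the pooled within-diet SD (log2, horizontal axis) for the 45 measured members, coloured by pathway, with dashed lines where the difference equals the SD. Only Haao and Kmo lie outside the dashed lines, and Got1 lies far right with a difference of 0.09.

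The members shared a pattern across individual mice, with a low and a high mouse on the same diet. PD replicate 2 was the lowest of all 8 mice for 23 of the 45 members (51.1%), against 21.1% of the 5365 genes at least as bright as Csad. It lay below the gene mean for 38 members, against 2763 of those 5365 genes and 10626 of all 18193. PD replicate 1 was the highest for 13 members and the lowest for 0, against 518 and 421 of those 5365 genes. It lay below the gene mean for 7 members, against 2481 of those genes. The mean deviation of the members from the gene means was 0.08, -0.10, -0.0036 and -0.03 in PD replicates 1 to 4, and 0.04, 0.04, -0.03 and 0.0069 in CD replicates 1 to 4. PD replicate 2 was below the gene mean in all 12 branched chain and propionate members, all 8 methionine and sulfur members and all 5 glycine, serine and one-carbon members, but above it in 3 of the 4 transaminases and 2 of the 3 tyrosine members.

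Other measures of that mouse were as follows. Its array median was 7.11 and its mean correlation with the other arrays 0.993. The excess of 3′ over 5′ signal, by which loss of RNA integrity is judged, was 1.17 for Actb and 0.15 for Gapdh on the log2 scale. The 8 mice ranged over 1.14 to 1.19 for Actb and 0.11 to 0.18 for Gapdh. Hepatocyte markers deviated by 0.04 in it, periportal markers by -0.0036, pericentral markers by -0.06, stellate cell markers by 0.06, endothelial markers by -0.09 and pancreas markers by 0.09. Of the 2 blood markers measured, Alas2 was at 10.86, against a mean of 11.41 over all mice, and Hba-a1 at 7.20, against a mean of 7.25. Their part in the low member values was not tested. Without this mouse 25 members were lower in PD and the median difference was -0.0059. Without PD replicate 1, the mouse with high values, 37 were lower and the median was -0.05. Mut was at 11.20 in PD replicate 2 and at 11.46, 11.46 and 11.46 in the other PD mice. Other probe sets of Mut did not repeat its low value in PD replicate 2. A probe set with a mean of 10.65 had this mouse at 10.63 and PD replicate 3 lowest, at 10.51. In a dimmer probe set of Mut, PD replicate 2 was the highest of all mice, at 7.82.

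After the diet means were subtracted, the median Pearson correlation over the 990 pairs of members was 0.36 across the 8 mice, and 74.7% of the pairs were above 0. The median was 0.54 for the 66 pairs of branched chain and propionate members, of which 98.5% were above 0, 0.49 for the 28 pairs of methionine and sulfur members, 0.49 for the 10 pairs of glycine, serine and one-carbon members, 0.05 for the 10 pairs of tryptophan members and -0.06 for the 6 pairs of transaminases. The same median was 0.015 over all genes and 0.024 over genes at least as bright as Csad. All pairs share the same 8 arrays, so these correlations describe the mice and are not independent of each other, and without PD replicate 2 the median over the members was 0.21, and 0.23 without PD replicate 1.

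**Figure D4:**
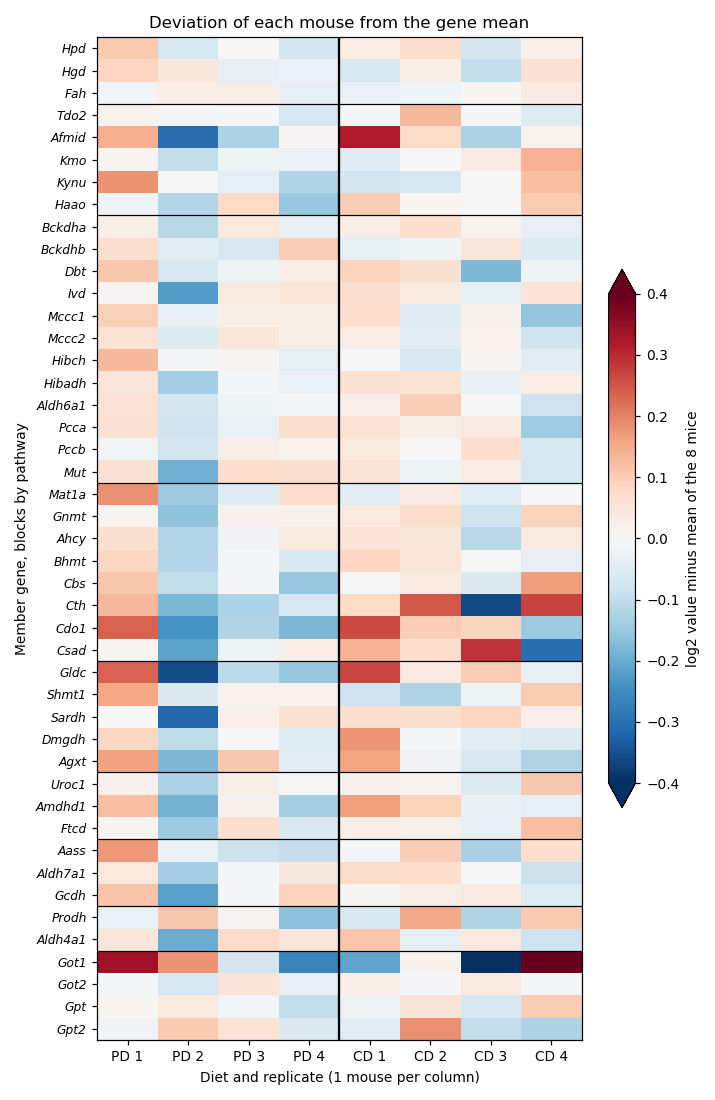
Log2 value of each member (rows, blocks by pathway) in each mouse (columns, PD left of CD) minus the mean of that member over the 8 mice, with red above and blue below it. PD replicate 2 is blue for 38 of 45 members and PD replicate 1 for 7.

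Where a member had more than 1 probe set, the other probe sets were compared too. Over 77 probe sets of the 45 members, 20 members had several, and in 12 of these all had the same sign of difference. The members whose probe sets disagreed in sign were Afmid, Mccc2, Hibch, Pcca, Mut, Shmt1, Aldh7a1 and Got2. Probe sets of the same sign could still differ in size, from 0.03 to 0.13 for Gpt2, -0.15 to -0.06 for Ivd and -0.13 to -0.03 for Tdo2. For Got2 a dimmer probe set (mean 9.79) had 9.79, 9.94, 9.94 and 9.88 in PD mice, against 9.73, 9.66, 9.86 and 9.51 in CD mice, a difference of 0.20 with an unadjusted limma p of 0.0181, while the one used differed by -0.03. For Pcca a probe set with a mean of 6.74 differed by -0.19, with an unadjusted limma p of 0.0489. The rank product called neither, and over all probe sets it called 0.218% higher and 0.262% lower, while 3.65% had an unadjusted limma p under 0.05.

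Of 62 further amino acid genes, from the same pathways and from glutamate, glutamine and asparagine metabolism, 51 were measured, and 19 had a higher and 32 a lower mean in PD, with a median of -0.03. The rank product called 1 higher, against 0.286% of all genes, and 1 lower, against 0.363%. In limma 4 had an unadjusted p under 0.05, against 4.24% of all genes, with 0 after adjustment. Both called genes were among those the study picked on these same arrays, so their calls are not independent evidence. Tat, the tyrosine aminotransferase that feeds the tyrosine members, fell in PD, with 11.83, 11.63, 11.54 and 11.11 in PD mice, against 12.05, 12.00, 11.87 and 11.95 in CD mice. The diets did not overlap, and the difference was -0.44 (95% interval -0.72 to -0.16; rank product FDR = 0.0301; exact permutation test, p = 0.0286, n = 4 each), or 0.737-fold. The call was lost without PD replicate 4 (-0.30), CD replicate 1 (-0.41), CD replicate 2 (-0.43) or CD replicate 3 (-0.47). The 3 tyrosine members that follow Tat in the pathway differed by -0.02 to 0.04, as given above, and the difference between Tat and them was not tested.

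Mpst, the mercaptopyruvate sulfurtransferase that releases sulfur from a transaminated form of cysteine, rose in PD, with 9.34, 9.24, 9.61 and 9.66 in PD mice, against 8.94, 8.84, 9.17 and 9.28 in CD mice. The difference was 0.40 (95% interval 0.15 to 0.66; rank product FDR = 0.0216; exact permutation test, p = 0.0571, n = 4 each), or 1.32-fold, and the lowest PD mouse lay below the highest CD mouse. This call was lost without PD replicate 3 (0.35), PD replicate 4 (0.34) or CD replicate 2 (0.33). Hykk, the hydroxylysine kinase, and Prodh2, the hydroxyproline dehydrogenase, had unadjusted limma p values of 0.0301 and 0.0346 and were not called. The Hykk values were 10.49, 10.47, 10.50 and 10.48 in PD mice, all above the CD values of 10.09, 10.40, 10.34 and 10.41, a difference of 0.17. With the probe set of largest interquartile range in place of the brightest, the difference of Hykk was -0.16. Prodh2 had 11.58, 11.46, 11.44 and 11.36 in PD mice, against 11.65, 11.53, 11.54 and 11.76 in CD mice, with overlap and a difference of -0.16.

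**Figure D5:**
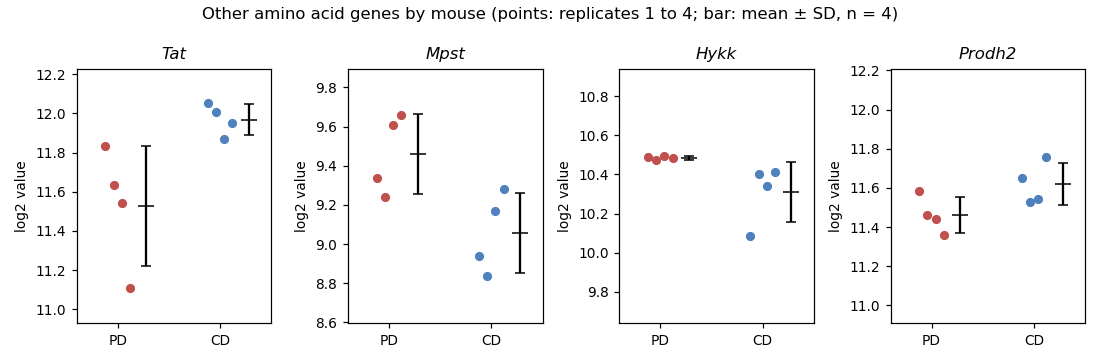
Log2 values of each mouse (points, replicates 1 to 4 from left to right) with the mean and SD of each diet (bars, n = 4), PD left of CD, for the 4 further amino acid genes with an unadjusted limma p under 0.05. All PD points of Tat lie below and all PD points of Hykk above the CD points, while those of Mpst and Prodh2 overlap with them.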

How the data were processed

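Liver RNA of 4 PD and 4 CD mice was labelled and hybridised to Affymetrix GeneChip mouse arrays. What the authors deposited is the model-based expression index of Li and Wong on the log2 scale, made in R 2.7.2 per the submitters' processing notes, and how arrays were normalized against each other was not given in the sources used here. The log2 values were taken as deposited. Leaving aside 64 controls, 45037 probe sets were tested. In the platform annotation 34945 of them named 1 gene, 932 several and 9160 none. Symbols were updated through RefSeq synonyms (GRCm38.p6), and the probe set of highest mean stood for its gene. Arrays give no counts, and their number limits the precision.

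The main test, as in the study, was the rank product. It used all 16 PD-to-CD array pairs, 1000 permutations of the values within each array and an FDR under 0.1, in Python 3.11.15 (numpy 2.4.6, pandas 2.3.3). A linear model with diet as the only term was fitted to every probe set in limma 3.58.1 (R 4.3.3), called at a Benjamini-Hochberg adjusted p under 0.1. Single genes were also compared with two-sided exact permutation tests. Lists were described by counts and medians, without a test. The code was tested on simulated data. Replicates are separate mice. Their numbers were not used as pairs in the main tests. Deviations of same-numbered mice correlated at -0.00078, -0.00031, -0.03 and -0.06. With no value for other pairs of mice beside them, these cannot decide whether the numbers carry a pairing.

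The members, the further amino acid genes, the regulators and the markers were chosen with earlier results of these data known. Values in every mouse were given for members that were called or had the largest difference or the widest spread of their pathway, with Got2 as the partner of Got1. Haao, Csad and Sardh were added after their values were seen. Alternatives were an FDR under 0.05, the replicate block, quantile normalization, median centring, an offset of 16 on the linear scale, leaving out dim or ambiguous probe sets, averaging or choosing probe sets otherwise, limma with a trend or array weights, the t-test of the methods, and leaving out each mouse in turn. Figures were drawn with matplotlib 3.10.9.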

Additional observations from a re-analysis of the deposited data

Results flagged for a closer look

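In a group of 4 mice, a value was singled out where its gap to the nearest other mouse took up so much of the range of the group that it passed Dixon's critical value, which chance does in about 1 in 20 groups, and 90 groups were looked at. PD replicate 2 stood below the other PD mice in 6 members. The value was 10.01 for Ivd, where the other PD mice had 10.24 to 10.27, 11.20 for Mut (11.46 in each of the others), 13.70 for Gnmt (13.86 to 13.87), 11.38 for Sardh (11.69 to 11.75), 12.38 for Uroc1 (12.50 to 12.53) and 9.73 for Aldh4a1 (9.976 to 10.003). CD replicate 3 stood below the other CD mice in Ahcy, at 13.12, where they had 13.26 to 13.28. The 6 values of PD replicate 2 come from 1 array and are not independent of each other, and other probe sets of Mut did not place this mouse lowest.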

How the results depend on the processing

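The rank product called 98 probe sets higher and 118 lower in PD. With the probe sets of each gene averaged it called 53 and 60 genes. Lower calls numbered 59 at an FDR under 0.05 and 73 with the filter on dim probe sets. Leaving out 1 mouse gave 27 to 190 higher and 16 to 208 lower calls. Members were called in 0 of these settings, and the methods' t-test gave 1711 probe sets with an unadjusted p under 0.05, of which 0 stood for members, and 0 after adjustment. limma called 0 probe sets, and 0 to 1 with 1 mouse left out.

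Of the members, 0 had an unadjusted limma p under 0.05. With the replicate number as a block this was 1, Gldc, and with the probe set of largest interquartile range 2, Got2 and Pcca. With the block the rank product called 109 probe sets higher and 103 lower, against 98 and 118 without it, and 0 members. Without 1 mouse, 0 to 2 members passed that p, the names being Cdo1, Gldc, Cth, Csad or Haao, and 0 to 2 had groups that did not overlap. Each name depends on which mouse was left out, and the share of all genes in these fits was not worked out. The names are thus not read as results about those members. Also without 1 mouse, the number of members higher in PD was 8 to 20 and lower 25 to 37. The median correlation of members was 0.21 to 0.47. Of the further amino acid genes, 0 to 1 were called higher and 0 to 1 lower. Over all settings 24 of the 45 members never changed sign of difference, and of 675 member values 8 moved by more than the within-diet SD, each with another choice of probe sets. Without CD replicate 1 or CD replicate 2, the difference of Igfbp1 turned to 0.0098 or 0.045, and leaving out each mouse in turn it ran from -0.58 to 0.045.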

Other observations

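Regulators of these enzymes were looked at as a list of 10, of which 9 were measured. None was called by the rank product and 0 had an unadjusted limma p under 0.05. Of the 9, 5 had a higher and 4 a lower mean in PD, with a median difference of 0.05. The largest difference was that of Cebpb, a transcription factor induced in fasting, at -0.26 (95% interval -0.53 to 0.0083). Its mean was 11.40 in PD and 11.66 in CD mice, and PD replicate 2 was the highest of all mice for Cebpb, at 11.81. Ppargc1a, Foxa1 and Cebpa differed by 0.16, 0.09 and 0.05, and Foxa2 by -0.03. Hnf4a, which maintains hepatocyte gene expression, differed by -0.11, and Klf15, known in liver for inducing amino acid breakdown, by -0.11. Nr3c1, the glucocorticoid receptor, differed by 0.13, and Gcgr, the glucagon receptor, by 0.05.

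Of 7 genes known to respond to glucocorticoids, glucagon or insulin 6 were measured, and all 6 had a lower mean in PD, with 3 called lower by the rank product (Tat, Igfbp1 and Tsc22d3), against 0.363% of all genes. These 3 are among the genes the study picked on these same arrays, so the list is not independent evidence of its direction. Tat is also among the further amino acid genes. Tsc22d3, a glucocorticoid-induced leucine zipper protein, had 9.79, 10.02, 9.82 and 9.28 in PD mice, against 10.65, 10.22, 10.20 and 9.44 in CD mice, a difference of -0.40 (rank product FDR = 0.0358; exact permutation test, p = 0.229, n = 4 each). Its call was lost without PD replicate 4 (-0.26), CD replicate 1 (-0.23), CD replicate 2 (-0.37) or CD replicate 3 (-0.38). Igfbp1, an insulin-repressed secreted binding protein, had 10.48, 10.45, 10.29 and 10.34 in PD mice, against 11.01, 11.12, 10.78 and 9.25 in CD mice, a difference of -0.15 (rank product FDR = 0.0371; exact permutation test, p = 0.8286, with 4 mice in each diet). CD replicate 4 lay below all PD mice, and the call of Igfbp1 was lost without CD replicate 3 (-0.07). Its difference turned to 0.0098 without CD replicate 1 and to 0.045 without CD replicate 2, and was -0.58 without CD replicate 4. Pck1, the gluconeogenic carboxykinase, differed by -0.07, G6pc, the glucose-6-phosphatase, by -0.16, and Fkbp5 by -0.05.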
